A study of Homo sapiens with 9 samples.

Results

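The genes described here are 49 nucleolar, ribosomal RNA processing and growth genes known as targets of the transcription factor MYC. They were taken by gene symbol, and all 49 were found among the 60623 genes of the deposited tables. All 49 also passed the filter on low counts that left 16213 genes for testing, so none was lost for low expression. RNA was sequenced from 22Rv1, an established human prostate carcinoma line, in which the cells' own PDCD4 had been knocked down with a short hairpin RNA in all 9 libraries. PDCD4, an inhibitor of the translation initiation helicase EIF4A, was then put back as the wild type (WT), as S239A, where alanine takes the place of a serine and cannot be phosphorylated, or as S239D, where aspartate stands in for the phosphorylated serine. Each form had 3 libraries. The question of the study is whether PLK1, a mitotic kinase, acts through PDCD4 phosphorylation in resistance to enzalutamide, an antiandrogen. Neither parental cells nor knockdown cells without rescue were analysed here. The 3 libraries of a form may come from separate cultures, separate lines or 1 pool, which the labels leave unsaid. The p-values therefore rest on the spread between these libraries alone, which may be technical.

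A ribosome is built in the nucleolus. RNA polymerase I transcribes a long precursor RNA, small nucleolar ribonucleoproteins (snoRNPs) guide its chemical modification and its first cuts, and a succession of assembly factors folds and trims it into the small and the large subunit. MYC is known to raise many of these genes together with genes for nucleotide and polyamine synthesis, and it binds the E-box CACGTG, often close to the transcription start. By role, 6 of the 49 genes act in transcription of ribosomal DNA or as nucleolar scaffold, 3 are snoRNP core proteins, 10 assemble the small subunit, 15 the large subunit, 10 serve growth metabolism, translation or nuclear import, and 5 work in mitochondria. The label "MYC-driven" comes from outside these data, where MYC was measured but not manipulated.

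The list is named for MYC, so the motif that MYC binds is shown first. RefSeq promoter windows on GRCh38.p14, 300 bases long from 250 before to 50 after the start site, were at hand for 40 of the 49 genes. The windows of TCOF1, NOLC1, MPHOSPH10, RRP12, BOP1, DDX18, RRS1, SLC29A2 and PUS1 were not used here. CACGTG, which reads the same on both strands, stood in 18 of 40 windows (45%, exact binomial 95% interval 29.3 to 61.5%, counting error only), against 2030 of 27305 windows of all genes (7.43%). The list was drawn as known MYC targets, so its larger share is no independent result. The windows of all genes were not limited to genes tested here. Of the 20 sites in these genes, 11 began within the first 50 bases after the start site, 4 within the 30 bases before it and 5 further upstream. HSPD1 and HSPE1, which are transcribed away from each other out of 1 promoter, share a single site, which is counted once for each gene in these numbers. The sites below are those of the 11 genes with an E-box whose RNA passed the test in a comparison with S239D. Each stretch of at most 30 bases is read 5′ to 3′ on the gene's strand, and the capitals mark the E-box.
MYBBP1A, chr17:4555340-4555369, minus strand: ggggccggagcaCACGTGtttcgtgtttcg
FBL, chr19:39846356-39846385, minus strand: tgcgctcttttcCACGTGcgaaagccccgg
RRP9, chr3:51941892-51941921, minus strand: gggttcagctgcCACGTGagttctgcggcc
UTP20, chr12:101280083-101280112, plus strand: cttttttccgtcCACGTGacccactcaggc
NOP14, chr4:2963374-2963403, minus strand: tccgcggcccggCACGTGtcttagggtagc
BYSL, chr6:41921515-41921544, plus strand: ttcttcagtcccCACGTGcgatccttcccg
WDR43, chr2:28894658-28894687, plus strand: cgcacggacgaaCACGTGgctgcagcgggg
NOP2, chr12:6568242-6568268, minus strand: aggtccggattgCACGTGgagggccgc
PES1, chr22:30591880-30591909, minus strand: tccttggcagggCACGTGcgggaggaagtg
IPO4, chr14:24188828-24188857, minus strand: tgtcagaacctcCACGTGctgtccctcccc
SRM, chr1:11060200-11060229, minus strand: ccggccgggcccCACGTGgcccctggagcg
In 10 of these 11 genes the RNA was higher in S239D than in S239A, and in FBL it was lower. Of all genes tested 20.9% were higher and 22.7% lower. The 11 were picked by these calls, so their directions say nothing about the E-box. The other genes with an E-box, IMP4, RCL1, MRTO4, EXOSC5, PRMT3, HSPD1 and HSPE1, passed in no comparison. The flanks differed from gene to gene, and the site of SRM lay furthest upstream, its first base 199 before the start site. A match describes these letters and is no measure of MYC binding.

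**Figure D1:**
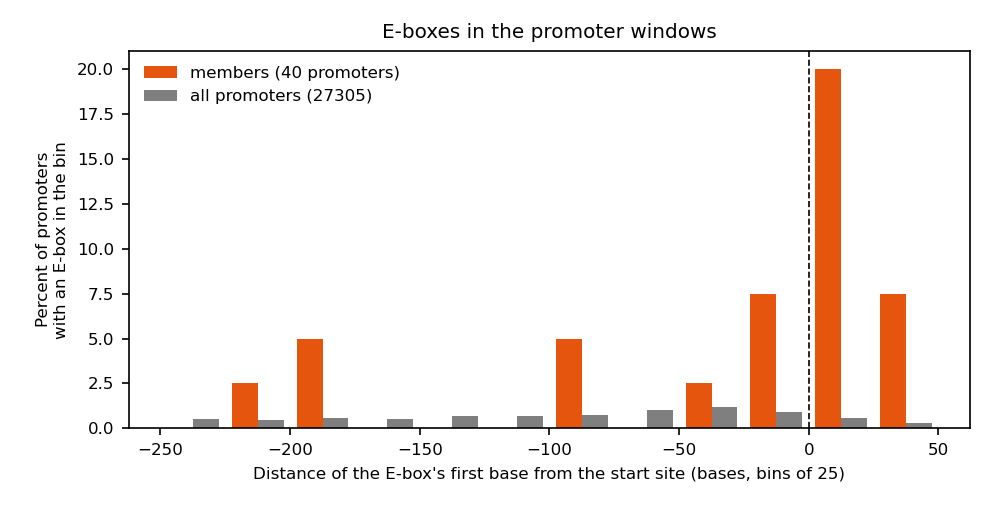
Position of CACGTG in promoter windows, in bins of 25 bases by distance of its first base from the start site (horizontal axis), as percent of windows (vertical axis) for the 40 genes of the list and for all 27305 windows. The bin of the first 25 bases after the start site held a site in 20% of the genes' windows and in 0.597% of all windows.

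PDCD4 itself was read first, although counts per gene do not tell its 3 forms apart and so cannot check the labels. It stood at 24.1, 24.9 and 20.4 CPM in the WT libraries, 19, 23.1 and 25 with S239A and 16.8, 17.1 and 17 with S239D, where CPM is counts scaled to library size in the usual per-million unit after TMM scaling between libraries. These counts can hold reads of the cells' own gene and of the construct, which the tables do not separate. It fell in S239D against WT (log2 fold change -0.44 ± 0.13 SE, edgeR adjusted p = 0.0164), a call that was lost without WT replicate 1, without WT replicate 2 and with limma at both pseudocounts, and S239A against WT did not pass (adjusted p = 0.953). It was also lower in S239D than in S239A (adjusted p = 0.0245). This call was not made in 6 of 19 alternatives, namely DESeq2, limma at both pseudocounts, and the fits that left out replicate 3 of S239A, replicate 1 of S239D or replicate 3 of S239D. The libraries held 5696841 to 9688554 counts. Mitochondrially encoded transcripts made up 2.95 ± 0.11% (WT), 3.90 ± 1.29% (S239A) and 5.21 ± 0.70% (S239D) of counts (SD, n = 3), with S239A replicate 2 and S239D replicate 2 the highest of their groups at 5.38 and 6.01%. Cytosolic ribosomal protein genes took 5.82 ± 0.07, 5.65 ± 0.38 and 4.27 ± 0.31% in the same order. All 8 luminal prostate markers were expressed, with a summed level of 4655 to 4759 CPM in WT, 4941 to 5588 in S239A and 3297 to 3659 in S239D. Fibroblast markers summed to 61.5 to 72.5, 69.2 to 71.8 and 44.2 to 53.7 CPM, leukocyte markers to at most 3.83 and endothelial markers to at most 0.857, with CD3E and CDH5 at 0 in every library. Of the 8 luminal markers 6 were called lower in S239D against WT, 1 was called higher and 1 was not called. Of the 3 fibroblast markers tested 2 were called lower and 1 was not called. The 1 leukocyte marker tested was called lower. Of all genes 21.7% were lower and 19.7% higher in this comparison. Whether any of these shifts has a part in the results below was not tested. All libraries are of the same cell line. In bulk RNA, fewer cells that express a marker and less of its RNA per cell cannot be told apart.

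MYC RNA was lower in S239D than in WT. It stood at 255, 245 and 252 CPM in the WT libraries, 214, 198 and 206 with S239A and 194, 174 and 186 with S239D, so that all 3 libraries of either variant lay below all 3 of WT. MYC fell in S239D against WT (log2 fold change -0.44 ± 0.08 SE, 0.74 times the WT level, edgeR adjusted p = 3.87e-04). It did not pass in S239A against WT (-0.28 ± 0.08, adjusted p = 0.255) nor in S239D against S239A (-0.16 ± 0.08, adjusted p = 0.108). DESeq2 called MYC lower in S239A against WT (adjusted p = 0.0404). With the second libraries of both variants left out, a setting chosen after seeing the data, MYC was called lower in both comparisons (adjusted p = 0.00443 and 0.0445). With GC and length trends removed, also chosen after seeing the data, it was called lower in S239D against S239A (adjusted p = 0.0404).

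In S239D against WT, 16 of the 49 genes rose, 3 fell and 30 did not pass. Over all genes tested 19.7% rose and 21.7% fell in this comparison, so the list had a larger share of rises (32.7%) and a smaller share of falls (6.12%) than the table as a whole. Its median log2 fold change was 0.14 against 0.00 for all genes. Against S239A the S239D libraries were higher for 31 genes and lower for 2, with 16 not passing and a median of 0.33, where all genes had 20.9% higher, 22.7% lower and a median of 0.01. The 2 comparisons use the same S239D libraries and are given side by side. Groups whose libraries do not overlap were common among all 16213 genes. Every S239D library was above every WT library in 4299 of them and below in 4438, and for the list in 20 and 5 genes. Against S239A these numbers were 3924 and 4150, and for the list 36 and 3. In both, 16 genes were higher: BOP1, BYSL, CAD, GNL3, GRWD1, MYBBP1A, NOP14, NOP2, PPRC1, RRP12, RRP9, RRS1, SLC29A2, UTP20, WDR43 and WDR74. Another 15 were called higher against S239A alone: AIMP2, DDX18, DKC1, IPO4, MPHOSPH10, NCL, NOC4L, NOLC1, ODC1, PES1, PPAN, PUS1, SRM, SUPV3L1 and TFB2M. FBL and NPM1 were lower in both, and PA2G4 was lower against WT alone. No call was made for EXOSC5, HSPD1, HSPE1, IMP4, LAS1L, MRTO4, NIP7, NOP16, NOP56, POLR1B, PRMT3, RCL1, SLC19A1, TBRG4 and TCOF1. With limma on log2(TPM + 1), where the median of all genes itself moved to 0.08 against WT and 0.09 against S239A, the split of all calls turned from 3195 higher and 3513 lower to 2526 and 1825 against WT, and from 3390 and 3674 to 2784 and 1913 against S239A. The list then had 15 higher and 2 lower against WT, and 30 higher and 2 lower against S239A. The calls of NOP14, WDR43 and PA2G4 against WT and those of NCL, IPO4 and SUPV3L1 against S239A were among those not made with limma.

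**Figure D2:**
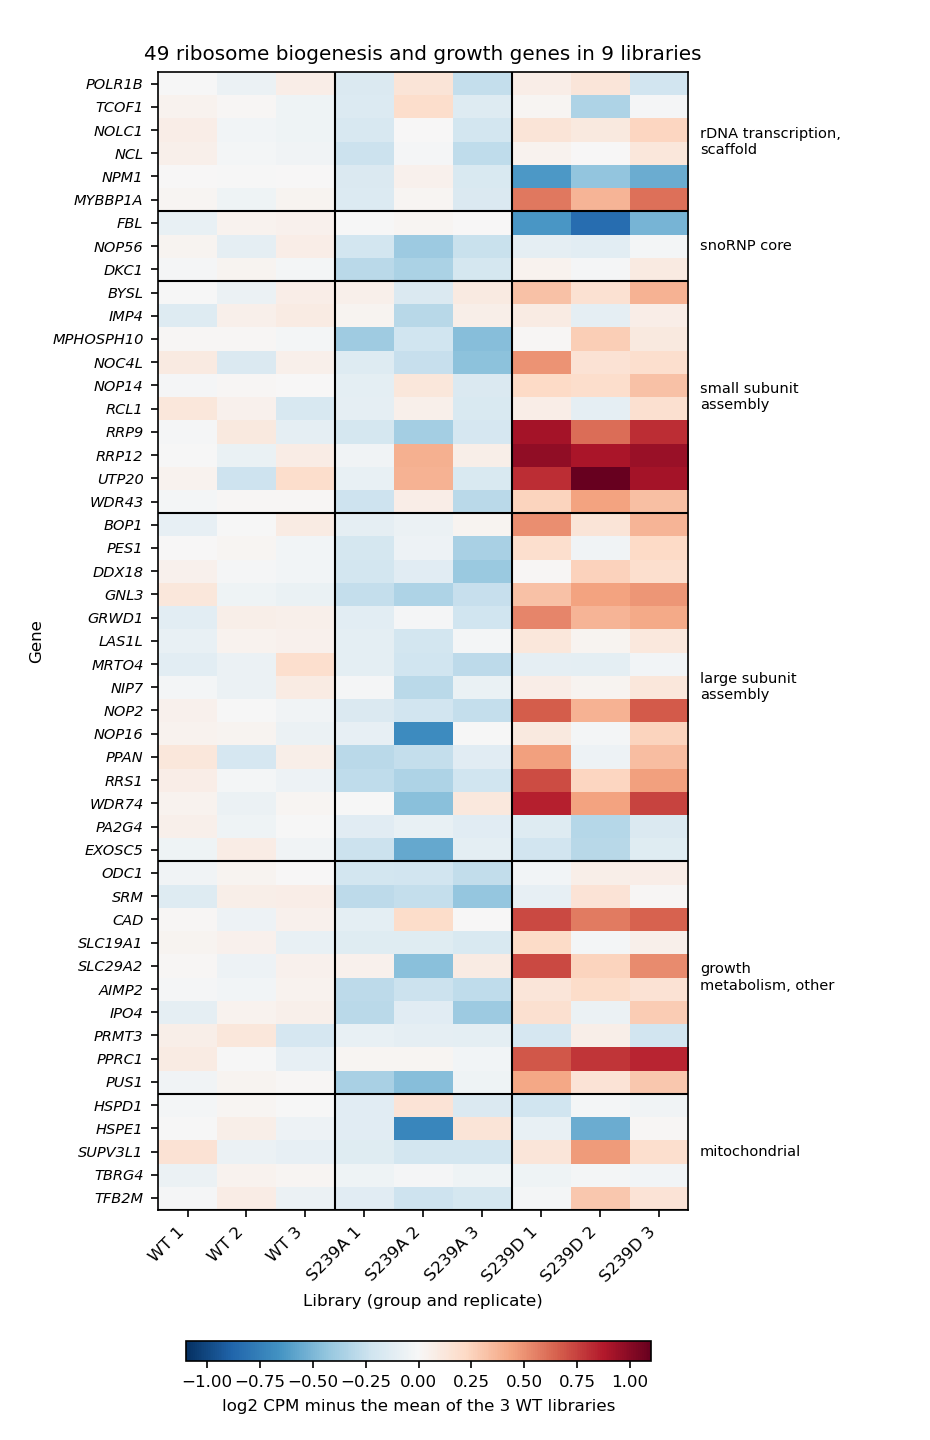
Log2 CPM of each of the 49 genes (rows, by role) in each of the 9 libraries (columns), minus the mean of the 3 WT libraries, with blue lower and red higher. The median over the genes lay between -0.17 and -0.14 in the S239A libraries and between 0.13 and 0.18 in the S239D libraries.

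Of the 6 genes for transcription of ribosomal DNA and for the nucleolar scaffold, 1 rose and 1 fell in S239D against WT. That is 16.7% each, against 19.7 and 21.7% of all genes. Against S239A 3 were higher and 1 lower (50 and 16.7%, against 20.9 and 22.7% of all genes). NPM1 (nucleophosmin, ENSG00000181163, chr5:171387116-171411137 on the plus strand), a nucleolar chaperone and the most abundant transcript of its role group, stood at 675, 671 and 678 CPM in the WT libraries, 606, 695 and 601 with S239A and 435, 499.5 and 463 with S239D. Every S239D library lay below every other library. NPM1 fell to 0.69 times the WT level (log2 fold change -0.53 ± 0.08 SE, edgeR adjusted p = 1.46e-04) and to 0.73 times that of S239A (adjusted p = 5.54e-04). MYBBP1A, a nucleolar regulator of transcription by RNA polymerase I, went the other way, with 138, 131 and 138 CPM in the WT libraries, 123, 138 and 122 with S239A and 203, 176 and 207 with S239D. The S239D values were again apart from all others, now above them, and the rise was 1.44-fold over WT (log2 0.52 ± 0.09, adjusted p = 3.10e-04) and 1.53-fold over S239A (adjusted p = 6.89e-05).

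NCL (nucleolin), the major RNA-binding protein of the nucleolus, had 760.3, 719 and 710.1 CPM in the WT libraries, 618, 721 and 602 with S239A and 750.5, 729.6 and 794 with S239D. Here S239A and not S239D was the group that stood low, apart from its replicate 2, which lay among the WT libraries. NCL was higher in S239D than in S239A by 0.23 ± 0.08 on the log2 scale (edgeR adjusted p = 0.036), and S239D against WT did not pass (0.05 ± 0.08, adjusted p = 0.622). That call was lost when any single library other than S239A replicate 2 or S239D replicate 2 was left out, with adjusted p up to 0.136. NOLC1, a chaperone of snoRNPs, was higher in S239D than in S239A as well (log2 0.28 ± 0.08, adjusted p = 0.0108), a call lost without S239A replicate 1 or S239D replicate 3. POLR1B, a core subunit of RNA polymerase I, and TCOF1 (treacle), needed for transcription of ribosomal DNA, passed in neither comparison, with log2 fold changes of -0.00 ± 0.12 and -0.10 ± 0.11 SE against WT.

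Of the 3 snoRNP core genes 1, FBL, fell in S239D against WT and none rose (33.3 and 0%, against 21.7 and 19.7% of all genes). Against S239A 1 was higher and 1 lower (33.3% each, against 20.9 and 22.7% of all genes). FBL (fibrillarin, ENSG00000105202, chr19:39834458-39846379 on the minus strand), the enzyme that methylates ribosomal RNA at sites chosen by box C/D guides, stood at 162, 177 and 178 CPM in the WT libraries, 172, 175 and 172 with S239A and 110.2, 96.1 and 121 with S239D. The S239A values lay among those of WT, while each S239D library was lower than all of them. FBL fell to 0.63 times WT (log2 fold change -0.66 ± 0.09 SE, edgeR adjusted p = 6.38e-05) and to 0.63 times S239A (adjusted p = 4.64e-05). NOP56, its partner in the same particle, had 191, 174 and 196 CPM in the WT libraries, 162, 141 and 158 with S239A and 174, 172 and 184 with S239D. S239A was low and S239D lay within the WT range or just under it. Neither comparison passed for NOP56 (against WT -0.08 ± 0.08, adjusted p = 0.447, and against S239A 0.20 ± 0.08, adjusted p = 0.0652), although the second did in 6 of 19 alternatives. These were the replicate number as a block (adjusted p = 0.0406), the fit without S239D replicate 2 (0.0461), limma at both pseudocounts (0.0444 and 0.0456), the fit without the second libraries of both variants (0.0316) and GC and length trends removed (0.0188). DKC1 (dyskerin), the pseudouridine synthase of the box H/ACA particle, had 123, 126 and 122 CPM in the WT libraries, 100.5, 97 and 108 with S239A and 127, 122 and 133 with S239D. S239A was again low, and the S239D libraries overlapped those of WT. Only the step between the variants passed for it (log2 0.32 ± 0.08, adjusted p = 0.00486).

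**Figure D3:**
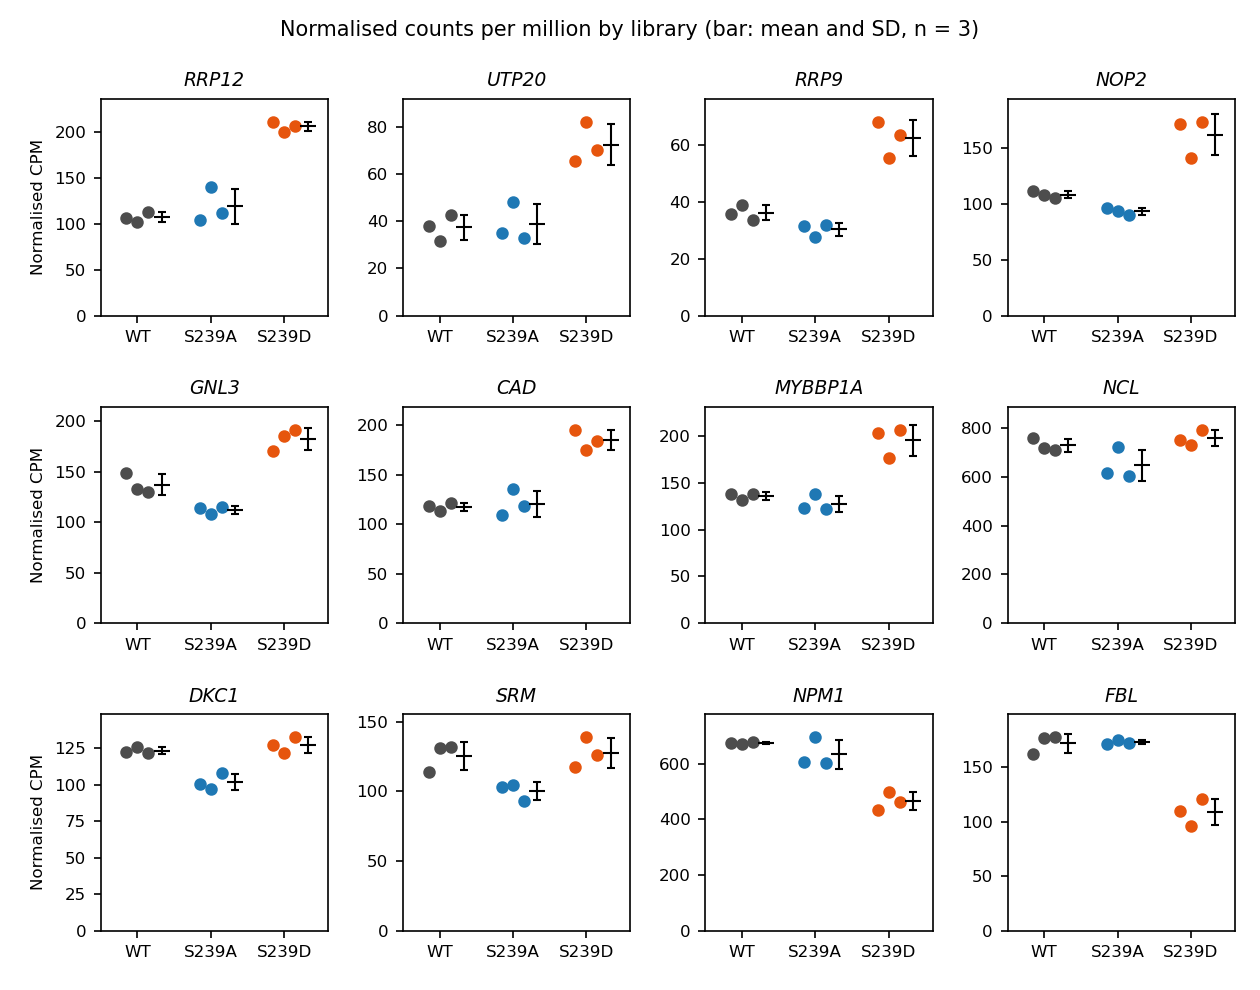
Normalised CPM (vertical axes, from 0) of 12 of the genes in each library (points) by group (horizontal axes), with the mean and SD of 3 libraries beside them. RRP12, UTP20, RRP9, NOP2, GNL3, CAD and MYBBP1A were higher in every S239D library than in any other, and NPM1 and FBL were lower. DKC1 and SRM were lower in every S239A library than in any other. NCL had its lowest mean in S239A, whose replicate 2 lay among the WT libraries.

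Most small subunit factors were higher in S239D. Against WT 6 of 10 rose and none fell (60 and 0%, against 19.7 and 21.7% of all genes). Against S239A 8 of 10 were higher and none lower (80 and 0%, against 20.9 and 22.7% of all genes). The medians were 0.28 and 0.49 on the log2 scale. UTP20 (ENSG00000120800, chr12:101280105-101386618 on the plus strand), a very large scaffold of the small subunit processome, stood at 38, 31.6 and 42.4 CPM in the WT libraries, 34.9, 48.3 and 32.9 with S239A and 65.3, 81.9 and 70 with S239D. RRP12 (ENSG00000052749, chr10:97356358-97426076 on the minus strand), a repeat protein that takes part in the export of both subunits, had 107, 102 and 113 CPM in the WT libraries, 105, 140.5 and 112 with S239A and 211, 201 and 207 with S239D. RRP9 (ENSG00000114767, chr3:51933429-51941904 on the minus strand), a protein specific to the U3 snoRNP that directs the early cuts of the precursor, had 35.9, 39 and 33.7 CPM in the WT libraries, 31.6, 27.8 and 31.8 with S239A and 68.1, 55.5 and 63.6 with S239D. In all 3 genes each S239D library exceeded every WT and S239A library. Among all 16213 genes tested, 4299 had every S239D library above every WT library. S239A replicate 2 was the highest S239A library for UTP20 and RRP12 and the lowest for RRP9.

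The rises over WT were 1.93-fold for UTP20 (log2 fold change 0.95 ± 0.15 SE, edgeR adjusted p = 2.00e-04), 1.92-fold for RRP12 (0.94 ± 0.10, adjusted p = 8.71e-06) and 1.73-fold for RRP9 (0.79 ± 0.11, adjusted p = 6.81e-05). Against S239A they were 1.87-fold, 1.73-fold and 2.05-fold (adjusted p = 2.37e-04, 2.88e-05 and 5.48e-06). RRP9 and GNL3 lie on chromosome 3, where the median of all 885 genes tested was itself 0.22 in S239D against WT. WDR43, which couples transcription of the precursor to its processing, rose over WT (0.35 ± 0.10, adjusted p = 0.0133, lost without WT replicate 1) and over S239A (0.49 ± 0.10, adjusted p = 0.00141). NOP14 and BYSL (bystin), processome and late assembly factors, rose by smaller amounts over WT, 0.25 ± 0.09 and 0.29 ± 0.11 (adjusted p = 0.0379 and 0.0447). The call of NOP14 was lost on leaving out any of 6 single libraries and that of BYSL on leaving out any of 7, and against S239A the numbers were 3 and 7. Antisense reads could enter the values of NOP14, since NOP14-AS1, on the other strand, had 13.2% as many counts and strandedness is not given in the sources used here.

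NOC4L, the partner of NOP14, and MPHOSPH10, a U3 snoRNP protein, passed against S239A alone, at 0.57 ± 0.12 and 0.49 ± 0.10 (edgeR adjusted p = 0.00201 and 0.00149). MPHOSPH10 had 56.4, 56.5 and 55.1 CPM in the WT libraries, 42.7, 48.2 and 40.5 with S239A and 56.3, 67.6 and 60.4 with S239D, where the S239A libraries were the low ones and S239D overlapped WT. IMP4, which binds MPHOSPH10, and RCL1 passed in no comparison, at 56.7 ± 4.8 and 17.5 ± 1.9 CPM in WT against 57.5 ± 4 and 18.1 ± 1.7 in S239D (SD, n = 3). IMP4 overlaps CCDC115 on the other strand, which had 38.7% as many counts.

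Among the 15 large subunit factors 6 rose over WT and 1 fell (40 and 6.67%, against 19.7 and 21.7% of all genes). In S239D 9 were higher than in S239A with none lower (60 and 0%, against 20.9 and 22.7% of all genes). The medians were 0.15 and 0.40. NOP2 (ENSG00000111641, chr12:6556863-6568691 on the minus strand), a ribosomal RNA methyltransferase known as a proliferation antigen, had 112, 108 and 105 CPM in the WT libraries, 96.8, 93.7 and 90.5 with S239A and 172, 141 and 173 with S239D. The 3 groups did not overlap, with S239D highest and S239A lowest. NOP2 rose 1.5-fold over WT (log2 fold change 0.58 ± 0.09 SE, edgeR adjusted p = 1.90e-04) and 1.73-fold over S239A (adjusted p = 1.17e-05). GNL3 (nucleostemin), a nucleolar GTPase, showed the same order, with 149, 132 and 129.7 CPM in the WT libraries, 114, 108 and 115 with S239A and 170.5, 186 and 192 with S239D. It rose 1.33-fold over WT (0.41 ± 0.08, adjusted p = 0.00139) and 1.63-fold over S239A (adjusted p = 1.76e-05). Its locus overlaps PBRM1 and GLT8D1 on the other strand, which had 92.2% and 29.1% as many counts.

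WDR74, which acts with the exosome helicase MTREX in early large subunit assembly, stood at 39.4, 36.7 and 39 CPM in the WT libraries, 38.3, 27.8 and 41.5 with S239A and 69.7, 52.3 and 64.4 with S239D. RRS1, which helps to install the 5S particle, stood at 48.8, 45.7 and 44.7 CPM in the WT libraries, 38.1, 36.5 and 39.9 with S239A and 76.4, 54.6 and 63.5 with S239D. Every S239D library was above all others for both, and the second S239D library was the lowest of the 3 each time. Their rises over WT were 0.69 ± 0.14 and 0.48 ± 0.12 (edgeR adjusted p = 0.00147 and 0.00446). GRWD1, a chaperone of a ribosomal protein and of histones, rose by 0.44 ± 0.09 over WT and by 0.56 ± 0.09 over S239A (adjusted p = 0.00184 and 2.95e-04).

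BOP1 and PES1 are partners in 1 complex that processes the large subunit precursor. BOP1 rose over WT (0.35 ± 0.10, edgeR adjusted p = 0.0105), a call lost without WT replicate 1 or S239D replicate 1, and over S239A (0.40 ± 0.10, adjusted p = 0.00458). For PES1 only S239D against S239A passed (0.33 ± 0.10, adjusted p = 0.0156), and that call was lost without S239A replicate 3 or S239D replicate 3. BOP1 and RRS1 lie on chromosome 8, where the median of all genes was 0.11 in S239D against WT. DDX18, a helicase, and PPAN passed against S239A alone (0.40 ± 0.10 and 0.49 ± 0.13, adjusted p = 0.00683 and 0.00759). PPAN cannot be separated with certainty from its read-through transcript with P2RY11, which had 37.8% as many counts.

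PA2G4, a ribosome-associated growth regulator, was the large subunit gene that fell against WT, from 467, 435 and 449.6 CPM in WT to 408, 362 and 404 in S239D. The step was small (log2 -0.20 ± 0.07, edgeR adjusted p = 0.0406) and was lost in 10 of 19 alternatives, among them leaving out each of the 3 WT libraries in turn. The exosome subunit EXOSC5, the precursor nuclease LAS1L, and MRTO4, NIP7 and NOP16 passed in neither comparison with S239D. Their log2 fold changes against WT were -0.21 ± 0.13, 0.09 ± 0.09, -0.08 ± 0.10, 0.08 ± 0.11 and 0.12 ± 0.15 SE. NIP7 and NOP16 overlap COG8 and HIGD2A on the other strand, which had 219 and 151% as many counts, so their values are uncertain.

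**Figure D4:**
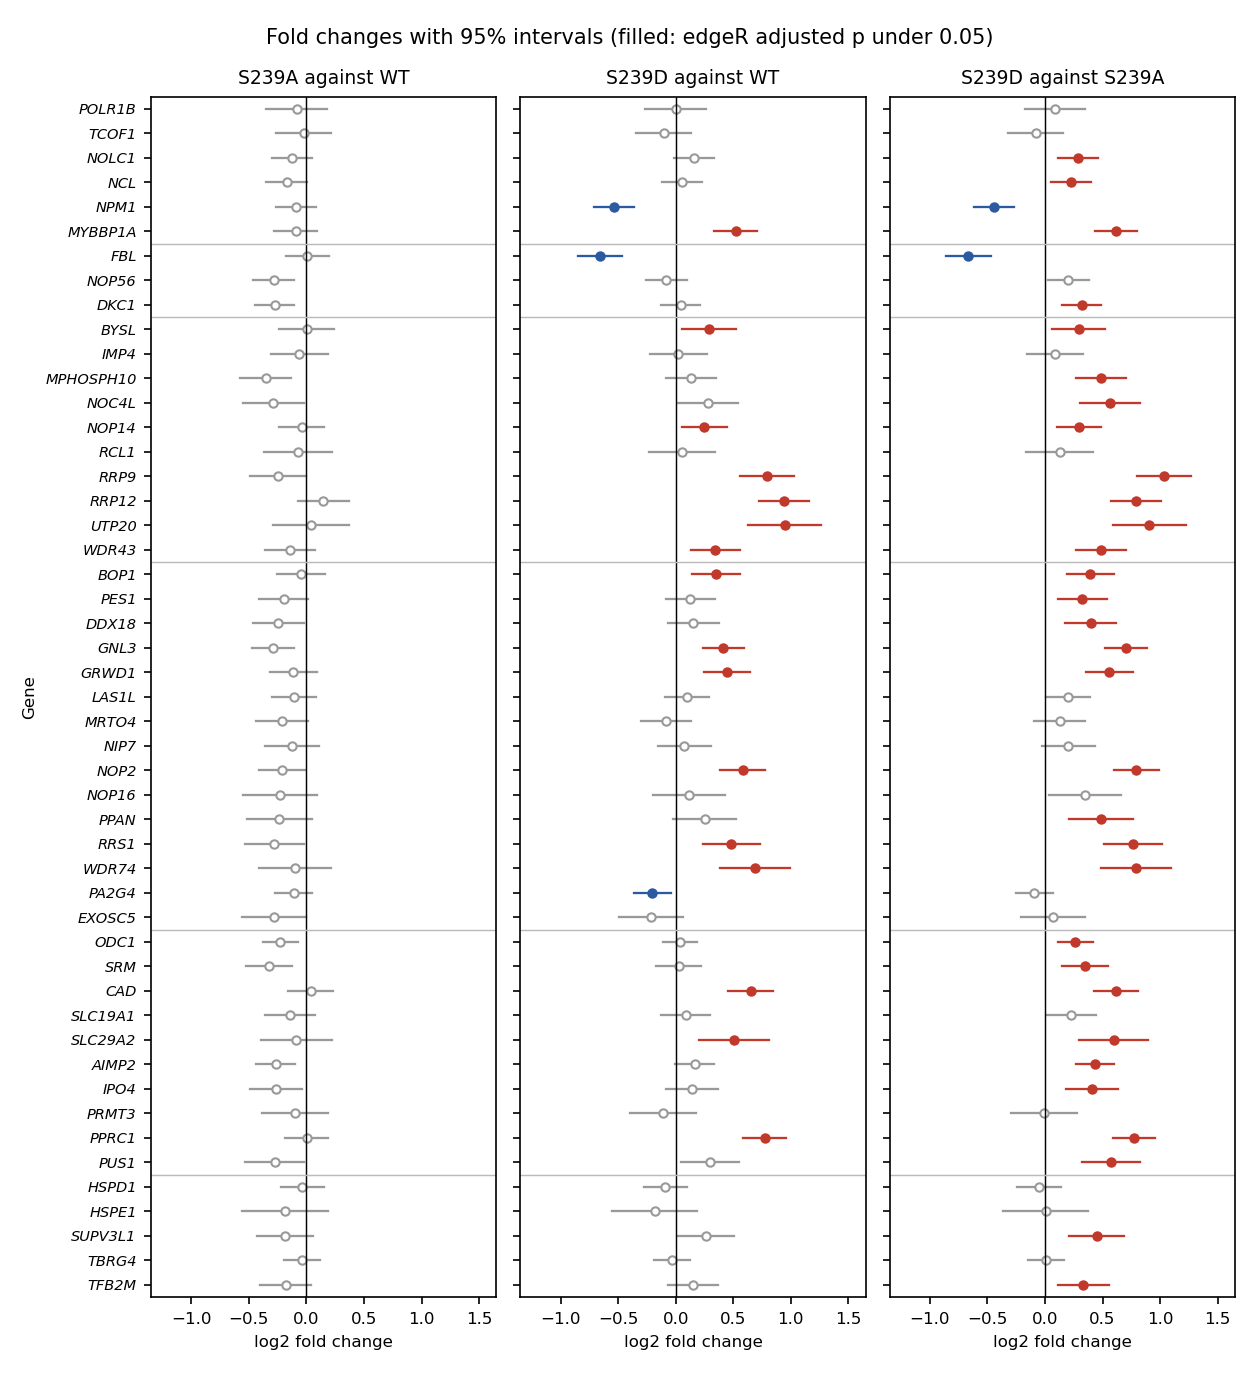
Log2 fold change of each of the 49 genes (rows, by role) in the 3 comparisons (panels). The 95% intervals were worked out from the edgeR test, and points are filled where the adjusted p was under 0.05. No point is filled in S239A against WT, 19 are filled in S239D against WT and 33 in S239D against S239A.

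Of the 10 growth genes 3 rose over WT and none fell (30 and 0%, against 19.7 and 21.7% of all genes). In S239D 8 were higher than in S239A and none lower (80 and 0%, against 20.9 and 22.7% of all genes). CAD (ENSG00000084774, chr2:27217369-27243943 on the plus strand), the enzyme that opens pyrimidine synthesis, stood at 118, 113 and 121 CPM in the WT libraries, 109, 135 and 118 with S239A and 195, 175 and 184 with S239D. S239A lay around the WT libraries and S239D above both groups throughout. CAD rose 1.57-fold over WT (log2 fold change 0.65 ± 0.09 SE, edgeR adjusted p = 6.97e-05) and 1.53-fold over S239A (adjusted p = 9.28e-05). PPRC1, a coactivator of nuclear genes for mitochondrial function, was alike, with 68.4, 64.1 and 60.5 CPM in the WT libraries, 65.3, 65 and 62.9 with S239A and 103, 111 and 115 with S239D. It rose 1.71-fold over WT (0.77 ± 0.09, adjusted p = 1.09e-05) and 1.71-fold over S239A (adjusted p = 8.67e-06). SLC29A2, a nucleoside transporter, was the third of this group to rise over WT (0.51 ± 0.14, adjusted p = 0.0104, and 0.0509 without S239D replicate 1).

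The polyamine enzymes passed between the variants only. ODC1, the rate-limiting enzyme of polyamine synthesis, had 447, 467 and 459 CPM in the WT libraries, 398, 396 and 378 with S239A and 447, 479 and 482 with S239D. SRM, spermidine synthase, had 114, 131 and 132 CPM in the WT libraries, 103, 105 and 93.1 with S239A and 118, 139 and 126 with S239D. S239D overlapped WT for both, and the S239A libraries were below all others. ODC1 differed between the variants by 0.26 ± 0.07 and SRM by 0.35 ± 0.09 on the log2 scale (edgeR adjusted p = 0.00773 and 0.00781), while against WT the differences were 0.04 ± 0.07 and 0.02 ± 0.09 (adjusted p = 0.709 and 0.857).

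AIMP2, a scaffold of the transfer RNA synthetase complex, stood at 89.4, 88.5 and 92.8 CPM in the WT libraries, 73.9, 76.6 and 74.4 with S239A and 99, 104 and 101 with S239D and was higher in S239D than in S239A (log2 0.43 ± 0.08, edgeR adjusted p = 5.10e-04). Its 3 groups did not overlap, but it overlaps EIF2AK1 on the other strand, which had 322% as many counts. The importin IPO4 and the pseudouridine synthase PUS1 also passed between the variants (0.41 ± 0.10 and 0.57 ± 0.12, adjusted p = 0.006 and 0.00131). The folate carrier SLC19A1 and the arginine methyltransferase PRMT3 passed in neither comparison with S239D.

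None of the 5 mitochondrial genes passed against WT, where 19.7% of all genes rose and 21.7% fell. The RNA helicase SUPV3L1 and the transcription factor TFB2M were higher in S239D than in S239A (0.45 ± 0.11 and 0.33 ± 0.10, edgeR adjusted p = 0.00558 and 0.0178), the latter at 0.0503 without S239D replicate 3. HSPD1, the mitochondrial chaperonin and the most abundant transcript of the list, had 1794, 1855 and 1820.3 CPM in the WT libraries, 1674, 2024 and 1636 with S239A and 1569, 1793 and 1777 with S239D. HSPE1, its co-chaperonin, had 153, 160.5 and 147 CPM in the WT libraries, 141, 93.5 and 169 with S239A and 145, 105 and 155 with S239D, where replicate 2 was the lowest library of either variant. The loci of HSPD1 and HSPE1 overlap on opposite strands. TBRG4, a mitochondrial RNA-binding protein, lay between 131 and 140.3 CPM in all 9 libraries. The 95% intervals of the log2 difference between S239D and WT ran from -0.28 to 0.10 for HSPD1 and from -0.19 to 0.13 for TBRG4.

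In S239A against WT none of the 49 genes passed, where 0% of all genes were called higher and 0.00617% (1 gene) lower. DESeq2 and limma called none of the 49 either. The list still lay mostly below WT, with 43 log2 fold changes under 0 and 6 above, and a median of -0.14 against 0.00 for all genes. At an unadjusted p under 0.05, 15 of the 49 were lower and none higher, where 4.29% of all genes were lower and 5.47% higher. In 19 of the 49 every S239A library was below every WT library and in none above, against 9.55% and 9.94% of all genes. The genes with the smallest unadjusted p were, in that order, DKC1, SRM, MPHOSPH10, AIMP2, NOP56, GNL3, ODC1 and IPO4. Their values were -0.28 ± 0.08, -0.32 ± 0.09, -0.36 ± 0.10, -0.27 ± 0.08, -0.28 ± 0.08, -0.29 ± 0.09, -0.23 ± 0.07 and -0.27 ± 0.11 on the log2 scale, with edgeR adjusted p from 0.291 to 0.434. NCL and NPM1 stood at -0.17 ± 0.08 and -0.09 ± 0.08, FBL and CAD at 0.01 ± 0.09 and 0.04 ± 0.09 (adjusted p = 0.514, 0.763, 0.988 and 0.936).

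Among the 49 genes, calls in this comparison were made in 1 of 19 alternatives. With the second libraries of S239A and S239D both left out, chosen after seeing the data, 15 of the 49 genes were called lower and none higher, while 2.68% of all genes were then called higher and 2.62% lower. The 15 were AIMP2, DDX18, DKC1, GNL3, IPO4, MPHOSPH10, NCL, NOLC1, NOP2, NOP56, NPM1, ODC1, PES1, SRM and WDR43. Their edgeR adjusted p included 0.00161 for NCL, 0.00298 for MPHOSPH10 and 0.0322 for NPM1. On leaving out any 1 library none of the 49 was called.

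On the TPM scale, which is per transcript length and allows levels of different genes to be compared, the median gene of the list had 45.8 TPM in WT. Levels ran from 5.55 ± 0.83 TPM for UTP20 to 1316 ± 13 for HSPD1 (SD, n = 3), and 13 genes exceeded 100 TPM. NPM1 (881 ± 2), HSPE1 (782 ± 52), NCL (521 ± 29.9), PA2G4 (339 ± 19) and FBL (335 ± 18) followed HSPD1 in level in WT. Of these, PA2G4 and FBL did not differ beyond their spread. Among the 13 genes above 100 TPM, GNL3 rose in S239D against WT, NPM1, FBL and PA2G4 fell, and the others did not pass. Of all genes 19.7% rose and 21.7% fell. Whether level and call are related was not tested. The 16 that rose ran from UTP20 to GNL3 (131 TPM in WT), with BOP1 (83.2), NOP2 (82.1), WDR74 (55.4) and MYBBP1A (52.1) also above the median of the list and the other 11 below it. The list as a whole took 0.686 ± 0.005% of TPM in WT, 0.625 ± 0.017% in S239A and 0.722 ± 0.019% in S239D. The small and large subunit factors took 0.036 ± 0.001 and 0.112 ± 0.002% in WT, 0.049 ± 0.001 and 0.141 ± 0.006% in S239D, and the scaffold genes 0.166 ± 0.004 and 0.154 ± 0.013%. These shares were not tested.

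The genes with and without an E-box in the window are given side by side. In S239D against S239A the 18 genes with an E-box had a median log2 fold change of 0.29, with 10 higher and 1 lower. The 22 without had 0.33, with 13 higher and 1 lower. The 9 genes that had no window here had 0.49, with 8 higher and 0 lower. Of all genes 20.9% were higher and 22.7% lower. Against WT the medians were 0.09 (7 higher, 1 lower) with an E-box and 0.11 (5 higher, 2 lower) without. For the 9 genes with no window the median was 0.30 (4 higher, 0 lower). Of all genes 19.7% rose and 21.7% fell. Longer transcripts had somewhat higher fold changes in S239A against WT, with a Spearman correlation of 0.40 across the 49 genes and 0.24 across all genes, and in S239D against WT the values were 0.23 and 0.13. With GC content the 49 genes had 0.29 in S239D against WT and 0.30 against S239A, where all genes had -0.01 and -0.05. These correlations are descriptions across genes that share libraries.

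Other genes of the same pathways, 178 tested in 8 lists, were counted in the same fit. They were chosen, as the 49 were, with earlier results of these data known. Of the 178, 53 rose and 23 fell in S239D against WT (29.8 and 12.9%, against 19.7 and 21.7% of all genes). Against S239A 78 were higher and 17 lower (43.8 and 9.55%, against 20.9 and 22.7% of all genes), and none passed in S239A against WT (1 higher and 20 lower at an unadjusted p under 0.05, and 2 lower with DESeq2). Further small subunit factors had 17 of 45 higher and 2 lower against WT, led by NOL6 and UTP3, 2 processome proteins (0.63 ± 0.09 and 0.60 ± 0.09, edgeR adjusted p = 1.08e-04 and 1.27e-04). IMP3, the partner of IMP4 and MPHOSPH10, and the methyltransferase BUD23 fell (-0.47 ± 0.10 and -0.34 ± 0.10, adjusted p = 0.00172 and 0.0123, the latter lost without WT replicate 1). Further large subunit factors had 20 of 50 higher, led by URB1 and the helicase DDX56 (0.64 ± 0.09 and 0.55 ± 0.08), and 3 lower, among them RSL24D1 and NOP53 (-0.52 ± 0.11 and -0.38 ± 0.09).

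In the RNA polymerase I list 3 of 14 rose (21.4%, against 19.7% of all genes) and 1 fell (7.14%, against 21.7%). The largest subunit POLR1A and the initiation factor RRN3 rose (0.63 ± 0.09 and 0.63 ± 0.10, edgeR adjusted p = 1.31e-04 and 1.39e-04) and POLR1E fell (-0.41 ± 0.11, adjusted p = 0.0101, lost without WT replicate 1). Of 13 snoRNP and assembly genes 1 rose, ZNHIT6 (0.44 ± 0.11), and 1 fell, PIH1D1 (-0.40 ± 0.11, lost without S239D replicate 3). Each is 7.69% of that list, below the 19.7% and 21.7% of all genes. The exosome list had 6 of 15 higher and 1 lower (40 and 6.67%, against 19.7 and 21.7% of all genes). Among those higher were the helicase MTREX and the nuclease EXOSC10, at 0.55 ± 0.12 and 0.40 ± 0.09. The lower one was XRN2 (-0.24 ± 0.09), whose call was lost on leaving out any of 6 single libraries.

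In both metabolic lists more genes fell than rose. In S239D against WT 6 of 8 further polyamine genes fell and none rose (75 and 0%, against 21.7 and 19.7% of all genes). Among those that fell were the ODC1 inhibitor OAZ1 and the acetyltransferase SAT1 (-0.42 ± 0.09 and -0.57 ± 0.12, edgeR adjusted p = 0.00173 and 0.00178). These act to lower polyamines, and the other four that fell were the antizyme OAZ2 and the oxidase PAOX, and the synthesis enzymes AMD1 and SMS (-0.24 ± 0.09 and -0.31 ± 0.10, adjusted p = 0.0464 and 0.0238), all named after their values were seen. Without WT replicate 1 none of these 4 calls was made, and that of PAOX was lost in 17 of 19 alternatives. Of 14 genes of purine, pyrimidine and one-carbon synthesis 3 rose and 7 fell (21.4 and 50%, against 19.7 and 21.7% of all genes). PRPS2 and MTHFD2 stood at -0.78 ± 0.10 and -0.64 ± 0.08 (adjusted p = 2.46e-05 and 3.07e-05). UMPS, which completes the pathway that CAD opens, rose by 0.39 ± 0.11 (adjusted p = 0.01, lost without WT replicate 3), and PFAS by 0.34 ± 0.12 (adjusted p = 0.0309, lost without WT replicate 1, WT replicate 2 or S239D replicate 3). Mitochondrial RNA and chaperone genes had 3 of 19 higher and 2 lower (15.8 and 10.5%, both below the shares of all genes), with the protease LONP1 and FASTK up (0.41 ± 0.09 and 0.45 ± 0.13, the latter lost without S239D replicate 1) and the chaperone TRAP1 and the protease subunit CLPP down (-0.42 ± 0.07 and -0.42 ± 0.14). The call of CLPP was lost on leaving out any of 4 single libraries. With limma on log2(TPM + 1) POLR1E, PIH1D1, BUD23, XRN2, PFAS, TRAP1 and CLPP were not called against WT. In that setting the genes called lower over all pathway lists went from 23 to 10. The falls in the metabolic lists were therefore not all called there.

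**Figure D5:**
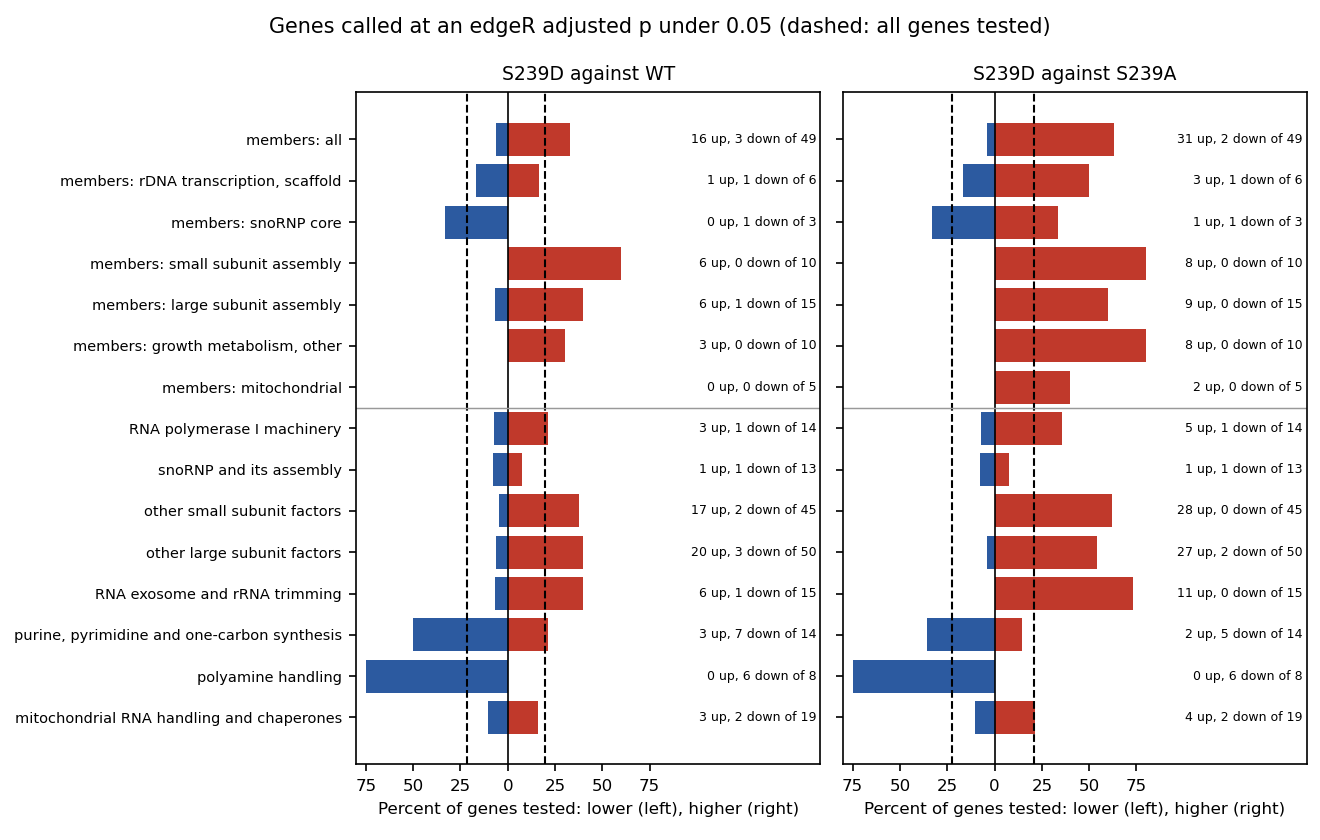
Percent of genes called higher (right, red) and lower (left, blue) in each role group and pathway list (rows), in S239D against WT and S239D against S239A, with dashed lines at the percent of all genes tested. Small and large subunit factors lie to the right in both panels, and polyamine genes to the left with 6 of 8 lower.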

How the data were processed

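Gene expression was measured by RNA sequencing of poly-A RNA in 9 libraries of 22Rv1 cells, grouped by the genotype labels. Gene-level expected counts were deposited by the authors. Trimmomatic 0.39 and RSEM are the tools in the submitters' processing notes. The authors also deposited TPM, scaled within each library. For aligner, build, annotation and strandedness nothing is given in the sources used here. The deposited table gives the coordinates printed, and there all 49 genes overlapped the same gene of GENCODE release 29 on GRCh38.

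Counts were rounded, scaled by TMM and filtered with filterByExpr, and 16213 of 60623 genes were tested. Two-sided quasi-likelihood F tests in edgeR 4.0.16 (R 4.3.3) used 1 fit of all 9 libraries, with Benjamini-Hochberg adjustment over all genes tested and calls at 0.05. SE and 95% intervals were worked out from edgeR's log2 fold change, F statistic and degrees of freedom, since the test itself gives neither. Scripts were tested on simulated data. A floor of 3 counts was 0.31 to 0.527 CPM, counting error only. The common biological coefficient of variation was 0.106.

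Alternative fits used a replicate block, leaving out each library, fits of 2 groups, 1 CPM in 6 libraries as the filter or none, RLE scaling, DESeq2 1.42.0, and limma 3.58.1 on log2(TPM + 1) or log2(TPM + 0.1), keeping genes that reached 1 TPM in 3 libraries. Leaving out both second libraries of the variants and removing trends over GC content and length were added after seeing the data. Deviations of same-numbered libraries correlated at 0.10 to 0.25 between S239A and S239D. Differently numbered pairs ranged from -0.21 to 0.15. These ranges overlap, so the check does not settle whether the numbers pair these groups, and no label pairs them. The main fit used group alone, with the replicate block as an alternative.

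The 49 genes and the lists were chosen with earlier results of these data known. Genes named in full were NCL, NPM1, FBL, NOP56, ODC1, CAD, SRM and MYC, up to 12 called genes of each direction by adjusted p, the 8 smallest p where fewer than 6 were called, and, of each pathway list, the 2 called genes with the smallest adjusted p in each direction in S239D against WT. Of the list genes 3 were matched by older symbols, and PWP2 was not tested.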

Additional observations from a re-analysis of the deposited data

How the results depend on the processing

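Over 19 alternatives the genes called higher ranged from 12 to 23 in S239D against WT (12 to 19 on leaving out 1 library) and from 25 to 36 in S239D against S239A (25 to 35), and the genes called lower from 2 to 4 and at 2. Of the 19 and 33 calls of these comparisons, 13 and 25 were made in every alternative. No called gene of the 49 changed sign, whereas of the called list genes GART, in both comparisons with S239D, and TFB1M, in S239D against S239A, changed sign in 2 alternatives each. In S239A against WT the genes lower went from 0 to 15 with both second libraries of the variants left out, and the cause was not tested. The pathway lists in that comparison went from none to 1 higher and 24 lower in that setting, and to 2 lower with DESeq2, 2 without a filter and 1 with GC and length trends removed. The 23 list genes lower in S239D against WT became 10 with limma at either pseudocount, where the median of all genes moved up by 0.08 and 0.09, and 14 to 24 on leaving out 1 library. The 17 lower against S239A became 7 with limma at either pseudocount, where that median was 0.09 and 0.10. With the replicate number as a block, S239D against S239A had 33 genes higher and 2 lower, S239D against WT 18 and 3, and S239A against WT 0 and 0. The labels pair no libraries, and deviations of same-numbered libraries correlated at 0.02 to 0.09 between WT and S239A and at -0.01 to 0.01 between WT and S239D. The promoter share was 40% in the 150 bases around the start site against 4.44% of all windows. With 3 libraries a group, small steps such as that of PA2G4 were at the limit of what could be called.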
